A study of Rattus norvegicus with 13 samples.

Results

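The miR-30 family was followed in fat of female Sprague Dawley rats, using the 8 members named on the array as rno-miR-30a, rno-miR-30a*, rno-miR-30b-5p, rno-miR-30c, rno-miR-30c-2*, rno-miR-30d, rno-miR-30e and rno-miR-30e*, of 677 rat miRNAs in all. The species prefix is left out from here on. The members were chosen by name, both strands included, as a family known to promote the formation of fat cells, and an asterisk marks the opposite strand of a precursor. They are read by 16 probes in 160 spots, and all 8 were among the 176 miRNAs tested. The group labelled HFD holds 6 arrays, 1 per daughter, whose fathers ate high-fat food (43% as fat), and the group labelled Control holds 7 arrays, 1 per daughter, whose fathers ate chow (9% as fat). Mating in both groups was at a paternal age of 15 weeks. Mothers and daughters in both ate chow, and the daughters were 14 weeks old at collection. The comparison asks whether paternal diet alone goes with different miR-30 levels in female offspring. Neither depot, litter nor sire is labelled, so sisters could not be modelled and the p-values rest on the spread among these rats.

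A miRNA guides a protein complex to messenger RNAs that pair with its seed, bases 2 to 8 from its 5′ end, and lowers their output. The main strands of the miR-30 family share 1 seed and so can reach overlapping sets of targets. In cultured human and mouse adipocyte precursors the family is known to favour differentiation, with the bone-forming factor RUNX2 among its targets, and it is also abundant in heart, muscle and kidney. The opposite strands have other seeds and are usually much rarer.

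Mature sequences for 5 of the 8 members were found in RefSeq's rat annotation (GRCr8). They are shown because the seed groups the members and the remaining bases separate them; capitals mark the seed, and bases are counted from 1 at the 5′ end.
miR-30a: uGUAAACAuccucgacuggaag
miR-30e: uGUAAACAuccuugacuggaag
miR-30c: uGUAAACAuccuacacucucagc
miR-30a*: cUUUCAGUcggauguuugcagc
miR-30c-2*: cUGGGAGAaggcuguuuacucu
miR-384-5p: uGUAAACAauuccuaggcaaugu
miR-30a and miR-30e differ at 1 of 22 bases, C13U with the base of miR-30a first. miR-30a and miR-30c differ at 5 of 22 bases, the first being C13A. The seed GUAAACA occurs in 4 of 693 mature rat miRNAs of the table, the 3 main strands above and miR-384-5p. miR-30b-5p, miR-30d and miR-30e* are described below by their levels alone. Binding of a probe to more than 1 of these near-identical members was not tested.

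The members come from separate places in the genome. miR-30e lies at chr5:139637504-139637525 on the minus strand (GRCr8), inside the span of Nfyc, which encodes a subunit of the transcription factor NF-Y. A copy of miR-30c lies at chr5:139634505-139634527, also on the minus strand and within Nfyc, and the gap between these 2 precursors is 2907 bases. miR-30a lies at chr9:33233946-33233967 on the plus strand, with its opposite strand at chr9:33233987-33234008. The other copy of miR-30c lies at chr9:33253695-33253717, with miR-30c-2* at chr9:33253735-33253756, and the gap between the precursors of miR-30a and miR-30c-2* is 19671 bases. That precursor lies within the spans of the pseudogene Rbx1-ps1 and a long non-coding RNA. The genes of miR-30b and miR-30d are neighbours in the same annotation. Because both copies of miR-30c give the same mature sequence, the array cannot tell them apart.

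Levels are log2 of the spot signal after division by the 75th percentile of the bright probes of the same array, with a floor at -5.67 below which values have no order. Because probes differ in brightness, a member is compared between animals only. Of the 677 miRNAs, 206 were detected on at least 1 array, with 157 to 196 on HFD arrays and 154 to 176 on Control arrays, and 0 spots were saturated. The fat list (miR-143, miR-103, miR-193, miR-365, miR-378, miR-26a, miR-10b, miR-196a and let-7a) was tested in full, 9 of 9. Its summed scaled signal ran from 16.6 to 18.8 on HFD arrays and from 16.7 to 27.3 on Control arrays. Of 6 muscle markers 3 were tested and miR-208 was undetected. The summed scaled signal of those 3 ran from 0.0919 to 12.9 on HFD arrays and from 0.105 to 10.9 on Control arrays, and it was high on HFD 629, Control 662 and Control 664. Of the other fixed marker lists, blood cells had 8 of 8 on the array tested, with sums of 5.02 to 9.12 on HFD arrays and 3.59 to 8.85 on Control arrays, and endothelium had 2 of 2, with sums of 3.01 to 3.74 on HFD arrays and 2.91 to 3.77 on Control arrays. Epithelium had 2 of 7 tested, nerve and brain 2 of 7, and liver, pancreas and kidney 3 of 6. In that order the sums ran from 0.217 to 0.314, 0.072 to 1.24 and 0.062 to 0.257 on HFD arrays. On Control arrays they ran from 0.212 to 0.293, 0.072 to 1.12 and 0.059 to 0.222. Undetected on all arrays were miR-200c, miR-141, miR-429, miR-124, miR-129, miR-137, miR-216a, miR-217 and miR-375.

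No member of the family differed between the fathers' diets beyond the spread between animals. Of the 8 members, 7 had a higher mean in HFD daughters and 1 a lower one, and 0 passed the test, at adjusted p from 0.965 to 0.999 (limma, Benjamini-Hochberg over 176 miRNAs). Over all tested miRNAs 0% passed, 51.7% had a higher mean and the median log2 difference was 0.0028, against a median of 0.023 for the members. At an unadjusted p under 0.05 stood 1.14% of all tested miRNAs (2 of 176) and 0 members. The 95% intervals of the fold difference for the 7 members detected on all arrays lay between 0.885 and 1.17.

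miR-30a, 1 of the strands bearing the shared seed, had levels from -0.081 to 0.42 with a median of -0.030 on HFD arrays, and from -0.17 to 0.22 with a median of 0.024 on Control arrays. The groups overlapped, and 1 array, HFD 629, stood above all others. The means were 0.044 ± 0.19 (SD, n = 6) in HFD daughters and 0.023 ± 0.15 (SD, n = 7) in Control daughters, a log2 difference of 0.022 ± 0.091 (SE) with an adjusted p of 0.984 in limma.

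miR-30e, the neighbour of miR-30c-1 within Nfyc, ran from -1.07 to -0.60 with a median of -0.91 on HFD arrays, and from -1.04 to -0.63 with a median of -0.99 on Control arrays. High levels were shared between the groups, on HFD 629 (-0.60), Control 662 (-0.63) and Control 658 (-0.70). Its log2 difference was 0.029 ± 0.090 (SE), with an adjusted p of 0.983 in limma.

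miR-30c, made from the precursors on chromosomes 5 and 9, ran from -0.13 to 0.19 with a median of -0.078 on HFD arrays, and from -0.17 to 0.16 with a median of -0.040 on Control arrays. It was the member with the mean lower in HFD daughters, by a log2 difference of -0.0013 ± 0.072 (SE), with limma's adjusted p at 0.999. The groups overlapped, and under several other ways of processing the sign was positive.

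miR-30b-5p ran from -0.15 to 0.19 with a median of 0.059 on HFD arrays, and from -0.087 to 0.027 with a median of -0.0093 on Control arrays. The HFD arrays lay on both sides of the Control range, with HFD 619 highest and HFD 663 lowest, and 4 of 6 were above the Control mean. This member had the lowest p of the family before adjustment, with means of 0.034 ± 0.12 (SD, n = 6) in HFD daughters and -0.032 ± 0.049 (SD, n = 7) in Control daughters. The log2 difference was 0.067 ± 0.051 (SE), or 1.05-fold with a 95% interval of 0.970 to 1.13, with an adjusted p of 0.965 in limma. It was also the member whose direction held in all 30 alternatives run, from 0.023 with the total gene signal to 0.13 within slide 2. These are not independent. The changed detection filters and the raised floor do not alter its values and left its difference at 0.067. The fits with 1 array left out share most arrays.

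miR-30d, the genomic neighbour of miR-30b, varied little, from -1.42 to -1.21 with a median of -1.34 on HFD arrays and from -1.41 to -1.23 with a median of -1.36 on Control arrays. The groups covered almost the same range. The log2 difference was 0.012 ± 0.045 (SE), with an adjusted p of 0.983 in limma.

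The opposite strands, too, overlapped between the groups. miR-30a* ran from -3.76 to -3.24 with a median of -3.60 on HFD arrays and from -3.81 to -3.45 with a median of -3.60 on Control arrays, a log2 difference of 0.024 ± 0.091 (SE). miR-30e* ran from -3.64 to -3.26 with a median of -3.54 on HFD arrays and from -3.73 to -3.32 with a median of -3.58 on Control arrays, a log2 difference of 0.037 ± 0.081 (SE). Both had an adjusted p of 0.983 in limma, and in both the highest array was again HFD 629.

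**Figure D1:**
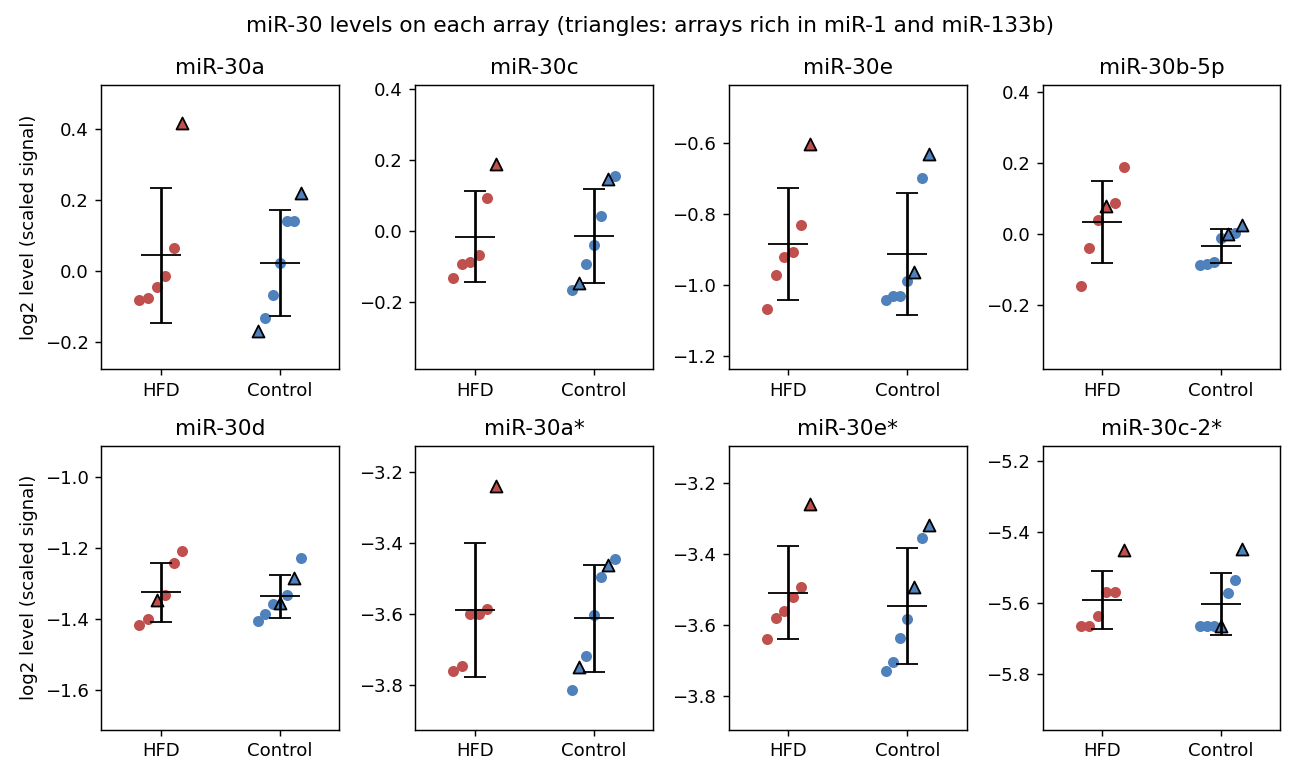
Log2 level of the 8 members on each array, HFD left of Control, with bars for the mean and SD and triangles for the 3 arrays rich in miR-1 and miR-133b. Every panel spans the same height of log2 units; the groups overlap in all 8, and HFD 629 is the highest array for miR-30a (0.42) and miR-30a* (-3.24).

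miR-30c-2*, the opposite strand of the chromosome 9 copy of miR-30c, was measured less firmly than the rest. It was detected on 8 of 13 arrays, 4 of 6 HFD and 4 of 7 Control, and 1 of its 2 probes was at the floor throughout. The other probe ran from -5.67 to -5.24 with a median of -5.54 on HFD arrays, and from -5.67 to -5.23 with a median of -5.67 on Control arrays. The mean over probes differed by 0.0098 ± 0.050 (SE) on the log2 scale, with an adjusted p of 0.990 in limma. With 5 arrays at the floor, this value bounds the difference poorly.

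In the deposited gene-level values miR-30c-2* falls into 2 separate sets of arrays. The scanner software's total gene signal equalled the sum of both probes on 7 arrays (4 HFD, 3 Control), where its log2 value ran from 5.25 to 6.12, and the signal of the brighter probe alone on 6 arrays (2 HFD, 4 Control), where it ran from 4.35 to 4.66. The brighter probe itself ran from 4.52 to 5.41 on the first set and from 4.35 to 4.66 on the second, so it overlapped between them. On that scale the mean log2 total gene signal was 5.19 in HFD daughters and 4.98 in Control daughters, a difference of 0.21, while the brighter probe averaged 4.72 in HFD daughters and 4.68 in Control daughters, a difference of 0.039. For the other 7 members both probes were counted on all arrays.

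The probes of a member mostly moved alike, less so for miR-30b-5p. For the 7 members detected on all arrays, both probes of a member gave the same direction between the diets, except for miR-30c. Its probes were at -0.0061 and 0.0034. Over the 13 arrays the 2 probes of a member correlated at r = 0.922 to 0.985 for 6 members and at r = 0.529 for miR-30b-5p, given as a description since the probes share the array and its scaling. The spots of a probe on 1 array scattered by an SD of 0.039 to 0.094 log2 units. The SD between animals within groups, pooled over both groups, was 0.072 for miR-30d, 0.086 for miR-30b-5p and 0.13 to 0.17 for the other 5. Its median over all tested miRNAs was 0.16. For miR-30b-5p the SD was 0.12 in HFD daughters and 0.049 in Control daughters.

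The arrays lay on 2 slides, each scanned once, with 4 HFD and 4 Control arrays on slide 1 and 2 HFD and 3 Control arrays on slide 2. miR-30e took opposite directions on them. On slide 1 its HFD arrays ran from -0.97 to -0.60 and its Control arrays from -1.04 to -0.99. The log2 difference there was 0.17 ± 0.081 (SE), with an adjusted p of 0.599 in limma. On slide 2 its HFD arrays were at -1.07 and -0.83, and its Control arrays at -0.96, -0.70 and -0.63, a log2 difference of -0.19 ± 0.14 (SE).

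miR-30e* also took opposite directions, at 0.17 ± 0.085 (SE) on slide 1, where the groups overlapped, and -0.15 ± 0.081 (SE) on slide 2. The difference between slides was -0.36 ± 0.16 (SE) for miR-30e (slide by diet interaction in limma, adjusted p = 0.243), and -0.32 ± 0.13 (SE) for miR-30e* (adjusted p = 0.226). Before adjustment the limma p-values were 0.0439 for miR-30e and 0.0341 for miR-30e*. At an unadjusted p under 0.05 the interaction held 19.3% of all tested miRNAs (34 of 176), and after adjustment 0.568%, which is miR-451 alone, a red blood cell miRNA named after its values were seen. For the other 6 members the interaction had adjusted p values from 0.657 to 0.839. Within slide 1, 7 of 8 members were higher (46% of all tested miRNAs), and within slide 2, 2 of 8 (52.8% of all), namely miR-30b-5p and miR-30d. No member passed within either slide, at a lowest adjusted p of 0.599 on slide 1 and 0.509 on slide 2.

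**Figure D2:**
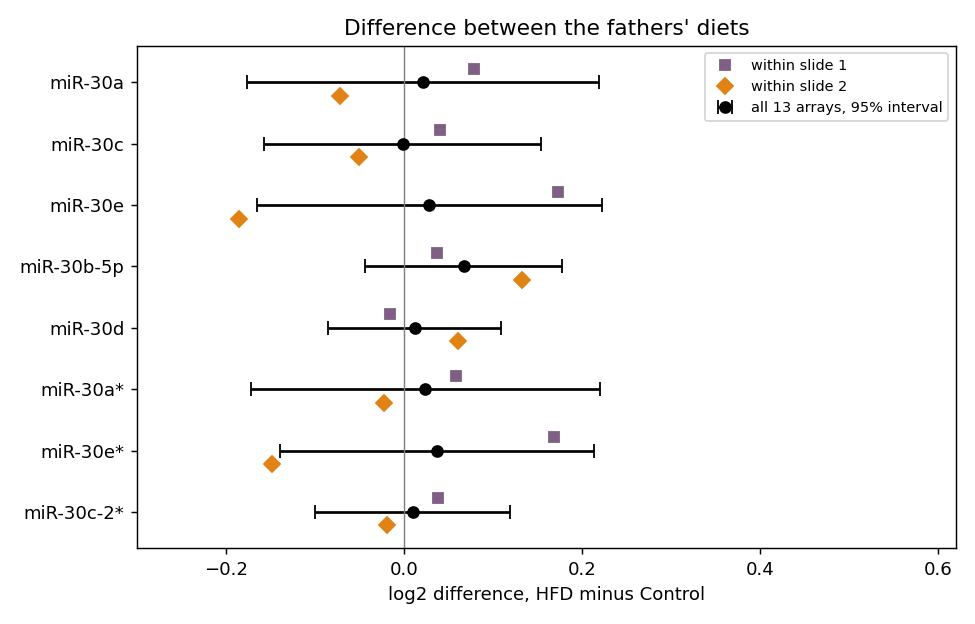
Log2 difference, HFD minus Control, for each member over all 13 arrays (circles with 95% intervals) and within slide 1 (squares) and slide 2 (diamonds). All intervals cross 0, and miR-30e and miR-30e* sit at 0.17 within slide 1 and at -0.19 and -0.15 within slide 2.

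The balance of the 2 strands of a precursor was compared within each array, where the scaling between arrays cancels for values above the floor. The log2 ratio of miR-30a over miR-30a* ran from 3.51 to 3.72 with a median of 3.66 on HFD arrays and from 3.58 to 3.68 with a median of 3.64 on Control arrays. The difference was -0.0023 (two-sided exact permutation test over 1716 splits, p = 0.943, n = 6 and 7). The log2 ratio of miR-30e over miR-30e* ran from 2.51 to 2.67 with a median of 2.65 on HFD arrays and from 2.53 to 2.70 with a median of 2.66 on Control arrays, a difference of -0.0083 (exact permutation p = 0.801, n = 6 and 7). For miR-30c over miR-30c-2* the difference was -0.011 (exact permutation p = 0.770, n = 6 and 7), where miR-30c has 2 precursors. Of the 2 probes of miR-30c-2*, 1 was at the floor on all 13 arrays and the other on 5 arrays. The scaling therefore does not cancel in this ratio. From the total gene signal the difference for miR-30c over miR-30c-2* was -0.19. In that measure miR-30c-2* had 1 or 2 probes counted depending on the array. All 3 had an adjusted p of 0.943 over the 3 ratios, and the smallest p this design allows is 0.000583. The levels of these ratios depend on probe brightness and were not compared with each other. Within slides 1 and 2 the differences were 0.020 and -0.049 for miR-30a, 0.0039 and -0.037 for miR-30e, and 0.0022 and -0.031 for miR-30c.

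Between animals some members varied more closely together than others. miR-30a, miR-30a*, miR-30c, miR-30e and miR-30e* varied together over the 13 arrays, with r from 0.69 to 0.94 in their 10 pairs and Spearman's rho from 0.43 to 0.96. By r, 10 of the 10 pairs passed a permutation test adjusted over all 28 pairs of members, and by rho 7 did. miR-30b-5p and miR-30d went with each other, at r = 0.76 (permutation adjusted p = 0.00407) and rho = 0.85 (permutation adjusted p = 0.00355). Their 10 pairs with the first set had r from 0.069 to 0.40 and rho from 0.077 to 0.41, and 0 of them passed by either measure. The planned test covered all pairs of members and did not name these 2 sets, which follow the same correlations. The counts of pairs within and between the sets are therefore a description. miR-30c-2* was left out of both sets. Whether the correlations of the 2 sets differ was not tested. Over all 10296 pairs of miRNAs detected on every array the median r was 0.035 and the 90th percentile 0.57.

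By r the closest pairs were the strands of miR-30a, the strands of miR-30e, and miR-30a with miR-30c. The last cannot be assigned to 1 locus, since miR-30c has 2 precursors. miR-30c and miR-30e, which also share a locus, had r = 0.86, as did miR-30a* with miR-30c. By rho the order differed, with miR-30b-5p and miR-30d at 0.85, above the strands of miR-30a. miR-30a and miR-30a* had r = 0.94 (permutation adjusted p = 0.00014) and rho = 0.82 (permutation adjusted p = 0.00498), miR-30e and miR-30e* r = 0.93 (0.000373) and rho = 0.86 (0.00355), and miR-30a and miR-30c r = 0.93 (0.00014) and rho = 0.96 (0.00056). An unadjusted p of 1e-05, as for miR-30a with miR-30a*, is the smallest that the 100000 resamples can give. miR-30c-2* correlated with the first set at r from 0.82 to 0.87 although it lay at the floor on 5 arrays. Without the 2 arrays farthest from the median of the first-named member, r in the 10 pairs of the first set ran from 0.47 for miR-30a* with miR-30e to 0.92 for miR-30a with miR-30c. It was then 0.49 for miR-30a with miR-30e*, 0.54 for miR-30a* with miR-30e*, 0.57 for miR-30a with miR-30e, 0.87 for the strands of miR-30a and 0.85 for those of miR-30e. Pairs between the sets then ran from -0.026 for miR-30a* with miR-30b-5p to 0.66 for miR-30c with miR-30d, and miR-30b-5p with miR-30d had 0.68. Within slide 1, of 8 arrays, the 10 pairs of the first set had r from 0.75 to 0.99 and miR-30b-5p with miR-30d had 0.72. On that slide r with the first set ran from 0.41 to 0.63 for miR-30b-5p, above its values over all 13 arrays, and from 0.034 to 0.33 for miR-30d, so the sets were less separate there for miR-30b-5p. Slide 2 holds 5 arrays, too few for more than a description. There the first set had r from 0.66 to 0.97, miR-30b-5p with miR-30d 0.92, and r with the first set ran from -0.42 to -0.0077 for miR-30b-5p and from -0.14 to 0.21 for miR-30d.

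The separation of the 2 sets moved with the scaling. The median r of the 10 pairs between sets was 0.26, but 0.58 when arrays were scaled by all probes and -0.096 with the total gene signal. That of the 10 pairs within the first set was 0.85, and 0.88 and 0.73 under the same alternatives, and all members of an array share its scaling factor.

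**Figure D3:**
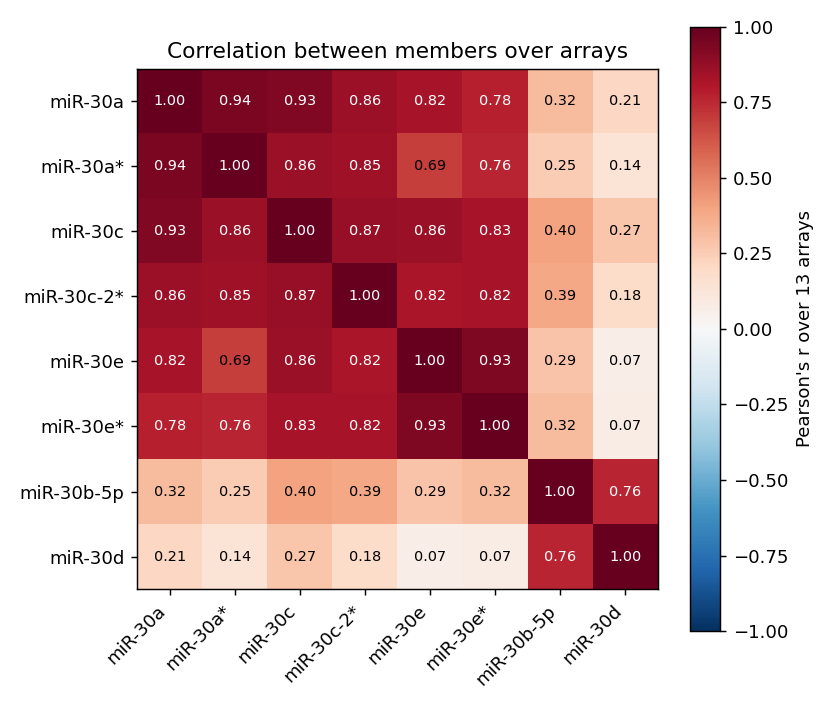
Pearson's r over the 13 arrays for each pair of members, coloured from -1 to 1. miR-30a, miR-30c, miR-30e and their opposite strands form a block of high r from 0.69 to 0.94, and miR-30b-5p and miR-30d a pair at 0.76.

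**Figure D4:**
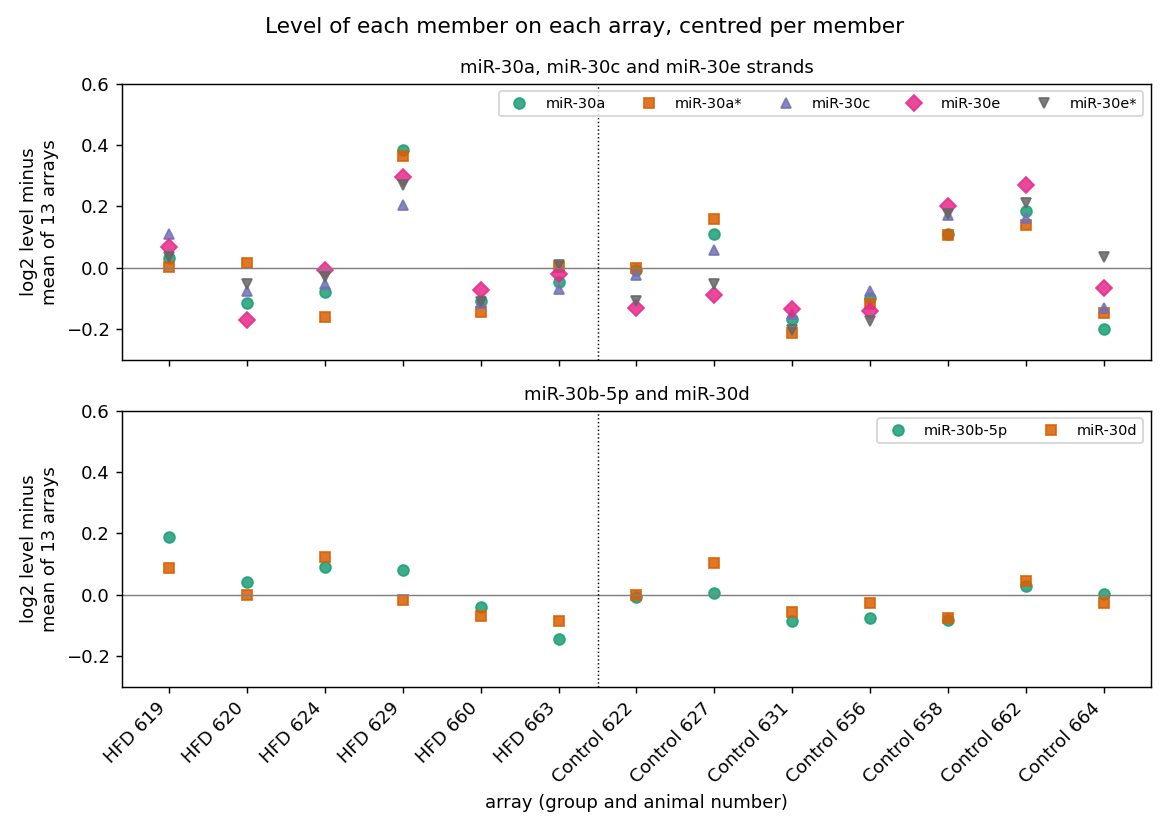
Log2 level of each member on each array after subtracting the member's mean over the 13 arrays, HFD arrays left of the dotted line and Control arrays right of it. In the upper panel HFD 629, Control 658 and Control 662 are high for all 5 members, while in the lower panel HFD 619 is highest for miR-30b-5p and HFD 624 for miR-30d.

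The arrays that were high for the first set overlapped only in part with the 3 arrays richest in muscle miRNAs. HFD 629, with log2 levels of 2.74 for miR-1 and 2.61 for miR-133b, held the highest level of miR-30a (0.42), miR-30c (0.19) and miR-30e (-0.60). Control 662, with miR-1 at 2.50, was next for miR-30a (0.22) and miR-30e (-0.63). Control 664, with miR-1 at 1.94, held the lowest miR-30a of all (-0.17) and a miR-30e of -0.96. Control 658 and HFD 619 were intermediate for the muscle miRNAs, with miR-1 at -2.99 and -1.28 and miR-133b at -1.82 and -1.59. On the remaining arrays miR-133b was at most -4.33. Control 658 had a miR-30e of -0.70 and a miR-30c of 0.16, and HFD 619 had -0.83 and 0.093. Whether muscle content accounts for the miR-30 levels was not tested. The muscle markers are known to be strong in muscle, where miR-30 is also present, and 2 alternatives bear on the comparison of the diets. Without the 3 muscle-rich arrays the median r within the first set was 0.77, and the log2 difference between diets was -0.052 for miR-30a, -0.037 for miR-30c, 0.019 for miR-30e, 0.076 for miR-30b-5p and 0.023 for miR-30d, with 4 of 8 members higher (58% of all tested miRNAs). With the muscle markers as a covariate over all 13 arrays, 8 of 8 members were higher (51.7% of all), with log2 differences of 0.033 for miR-30a, 0.0077 for miR-30c, 0.044 for miR-30e, 0.072 for miR-30b-5p and 0.013 for miR-30d. No member passed in limma under either alternative. In whole fat, fewer cells of a type and less RNA per cell cannot be told apart.

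**Figure D5:**
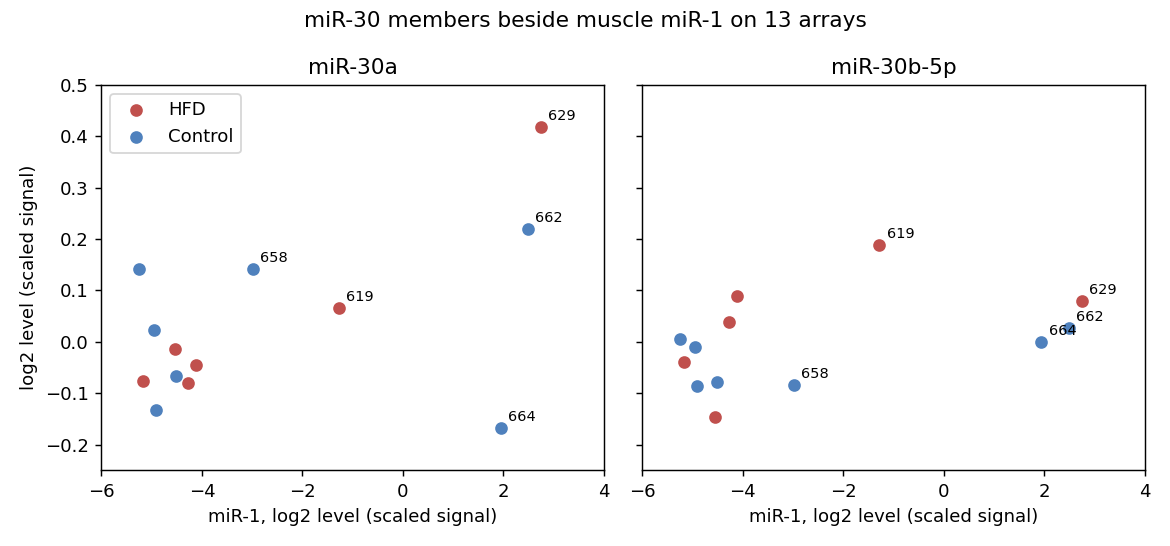
Log2 levels of miR-30a (left panel) and miR-30b-5p (right panel) against muscle miR-1 on the 13 arrays, HFD and Control by colour, with animal numbers for arrays whose miR-1 is above -3.2. Of the 3 arrays at the far right, 629 and 662 have the highest miR-30a (0.42 and 0.22) and 664 the lowest (-0.17), while their miR-30b-5p lies between -0.00034 and 0.079.

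Single arrays set the direction of several members. Without HFD 629, 2 of 8 members were higher (49.4% of all tested miRNAs), with log2 differences of -0.053 for miR-30a, -0.046 for miR-30a*, -0.027 for miR-30e, -0.013 for miR-30e* and -0.018 for miR-30c-2*. Without Control 631, 4 of 8 were higher (50.6% of all), with -0.0043 for miR-30a, -0.0094 for miR-30a* and -0.00082 for miR-30c-2*, and without Control 664 miR-30a was at -0.010. With the scanner's total gene signal in place of the spot signal, 2 of 8 members were higher (39.2% of all tested miRNAs), namely miR-30b-5p and miR-30c-2*, and with scaling by all probes 5 of 8 (45.5% of all). miR-30d turned to -0.0043 without HFD 619 and to -0.011 without HFD 624. miR-30b-5p stayed higher, from 0.036 without HFD 619 to 0.10 without HFD 663, where limma's p was 0.0385 before and 0.908 after adjustment. No member passed with any array left out, at adjusted p of at least 0.678 in limma.

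Outside the family, the 5 of 168 tested miRNAs whose levels over the 13 arrays were most like the mean of the 5 main strands were miR-29c* (r = 0.83), miR-378 (0.82), miR-499 (0.79), miR-378* (0.73) and miR-29c (0.73). This is a description of a ranking over arrays that share their scaling, with rho of 0.58, 0.85, 0.68, 0.75 and 0.75 in the same order. miR-378 and miR-378* are the strands of a precursor within the gene of the mitochondrial coactivator PGC-1β, miR-499 lies within a heart and slow-muscle myosin gene, and miR-29c belongs to a family known to lower collagen output. Least like the main strands were miR-542-5p (r = -0.72, near the floor) and miR-185 (r = -0.67). Between the diets, miR-378 differed by 0.16 ± 0.11 (SE), miR-378* by 0.14 ± 0.092 (SE), miR-499 by -0.10 ± 0.20 (SE), miR-29c by -0.028 ± 0.066 (SE), miR-29c* by 0.00047 ± 0.10 (SE), miR-185 by 0.037 ± 0.084 (SE) and miR-542-5p by -0.024 ± 0.040 (SE) on the log2 scale. None of the 7 passed in limma, at adjusted p from 0.965 to 0.999.

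Other miRNAs known to act on fat cell formation did not pass either. Of 15 tested miRNAs that promote it besides miR-30, 8 were higher and 7 lower in HFD daughters, with 0 past the test and a median log2 difference of 0.0082. Those with the lowest p were miR-378*, miR-378 and miR-26b, the last at -0.050 ± 0.049 (SE). Of 10 tested miRNAs that restrain it, 3 were higher and 7 lower, with 0 past the test and a median of -0.050. Those with the lowest p were miR-221 at -0.52 ± 0.27 (SE), miR-27b at -0.19 ± 0.14 (SE) and miR-222 at -0.33 ± 0.25 (SE). miR-222 was at the floor on 8 arrays, among them all HFD arrays, so its difference rests on the Control arrays above the floor. For miR-221 the SD was 0.70 on Control arrays and 0.13 on HFD arrays. The muscle markers miR-1 at -0.18 ± 1.67 (SE), miR-133b at -0.54 ± 1.67 (SE) and miR-499 had 0 of 3 past the test.

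The remaining opposite strands and the seed relative were at or below detection. miR-30b-3p, miR-30c-1*, miR-30d* and miR-384-5p were detected on 0 of 13 arrays by the rule used here. In the deposited gene-level values miR-30b-3p nevertheless had an entry on 4 of 6 HFD arrays and 2 of 7 Control arrays, at log2 values of 3.14, 4.14, 3.07 and 3.74 on HFD 624, 629, 660 and 663 and of 3.14 and 3.22 on Control 656 and 662. The other 3 had no entry there. The deposited values are not scaled between arrays.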

How the data were processed

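Total RNA from fat (100 ng) was labelled with Cy3 and hybridised to Agilent 1-colour rat miRNA arrays, per the labels' protocols. Per the file headers, the authors read the scans with Feature Extraction 10.7.3.1 on an rn4 grid, and the deposited spot values are background-subtracted intensity, not normalized between arrays. The deposited value table holds log2 of the total gene signal, also unscaled: of 2569 values, 26 differed from it by more than 2e-04, and column medians ran from 6.95 to 7.77. RMA and Partek are named in the submitters' processing notes with no role given.

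Control and flagged spots were left out and the spots of a probe averaged. Each array was then scaled to its own 75th percentile, taken over 260 probes that every array detected. Values were floored at 0.0197, put on the log2 scale and averaged over a miRNA's probes. A miRNA was tested if at least 6 arrays detected it, meaning that 0.5 or more of a probe's spots were well above background. The test was limma 3.58.1 in R 4.3.3 (lmFit, eBayes, two-sided, Benjamini-Hochberg, threshold 0.05), checked on simulated data. The number of arrays limits the precision. The files hold no mean spot signal, so the normexp alternative used the median spot signal, a choice made after seeing the data.

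Members, lists and tests were chosen with earlier results of these data known. Named miRNAs are the 8 members, the 5 tested miRNAs most like and the 2 least like the mean of the main strands, the 3 lowest p of each list on fat cell formation, and the tested muscle markers. Alternatives covered scaling, background, probe summary, floor, filter, weights, slide, muscle content and each array left out.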

Additional observations from a re-analysis of the deposited data

Results flagged for a closer look

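HFD 629 stood far above the other 5 HFD arrays for miR-30a, at a log2 level of 0.42, and for miR-30a*, at -3.24. These were 2 of 22 groups of values checked, where chance marks about 1 in 20. The 2 are strands of 1 precursor, correlated over the arrays at r = 0.94, so they are not independent marks. The same array was among the 3 richest in miR-1 and miR-133b, with log2 levels of 2.74 and 2.61 for them.

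miR-30b-3p, which was detected on no array by the rule used in the comparison, had deposited log2 total gene signals of 4.14 on HFD 629 and 3.74 on HFD 663, above the highest value on a Control array, 3.22. These values are not scaled between arrays, and HFD 629 and HFD 663 detected the most miRNAs of all arrays, 189 and 196. No test was made, since the other arrays with an entry lay from 3.07 to 3.22 in both groups and 7 arrays had none.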

How the results depend on the processing

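No member and no other miRNA passed in limma under any of 30 alternatives, while 1 to 17 miRNAs had an unadjusted p under 0.05, against 2 as reported. The lowest adjusted p of a member was 0.450. miR-30b-5p kept its direction throughout, while 50 of 239 values of the 8 members changed sign. The cause of these changes was not tested. The alternatives are not independent, and some, such as the changed detection filters, leave the difference of a member as it was.

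The count of members higher in HFD daughters was 7 as reported (51.7% of all tested miRNAs). It was 2 with the total gene signal (39.2% of all), 4 with array weights (53.4%), 2 within slide 2 (52.8%) and 4 without the muscle-rich arrays (58%). It was 8 without scaling (60.2% of all), in the deposited table (64.2%) and with the brightest probe (50%). In the deposited table the median log2 difference was 0.050 for the members and 0.046 for all tested miRNAs. The count was also 8 with slide as a block (54.5%) and with muscle markers as a covariate (51.7%). With 1 array left out it was 2 to 8 (47.7% to 58.0% of all). Log2 differences that turned with the total gene signal were -0.021 for miR-30a, -0.019 for miR-30a*, -0.029 for miR-30d, -0.015 for miR-30e and -0.0073 for miR-30e*. With array weights they were -0.016 for miR-30a, -0.017 for miR-30a* and -0.0068 for miR-30d. Within slide 2 they were -0.071 for miR-30a, -0.023 for miR-30a*, -0.020 for miR-30c-2*, -0.19 for miR-30e and -0.15 for miR-30e*, and within slide 1 -0.016 for miR-30d and 0.040 for miR-30c. Without the muscle-rich arrays they were -0.052 for miR-30a, -0.044 for miR-30a* and -0.00011 for miR-30c-2*. Scaling by all probes gave -0.0026 for miR-30c-2* and -0.0055 for miR-30d, and quantile normalization -0.0014 for miR-30d and 0.0089 for miR-30c. miR-30c was also at 0.017 without scaling, 0.0082 with normexp, 0.026 in the deposited table, 0.0034 with the brightest probe, 0.0059 with slide as a block and 0.0077 with muscle markers as a covariate. Normexp put miR-30c-2* at -0.0014 and the strand log ratios at 0.024 for miR-30a, 0.014 for miR-30e and 0.0097 for miR-30c, and the total gene signal put the last at -0.19. The median r between the 2 sets of members was -0.096 with the total gene signal and 0.58 with scaling by all probes.

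With 1 array left out, log2 differences ran from -0.053 to 0.054 for miR-30a, -0.046 to 0.059 for miR-30a*, 0.036 to 0.10 for miR-30b-5p, -0.043 to 0.027 for miR-30c, -0.018 to 0.036 for miR-30c-2*, -0.011 to 0.030 for miR-30d, -0.027 to 0.076 for miR-30e and -0.013 to 0.075 for miR-30e*. The strand log ratios ran from -0.019 to 0.023 for miR-30a, -0.026 to 0.014 for miR-30e and -0.028 to 0.0091 for miR-30c. No paired analysis was possible because the animal numbers are not shared between the groups. miR-30c-2* is limited by signal near background.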
